A study of Homo sapiens with 8 samples.

Results

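WSB1 and WSB2, the parts of the cullin-RING ligases they assemble with, and the related receptor SOCS3 were followed at the level of mRNA in U2OS cells, an established human osteosarcoma line. The 10 genes, chosen by symbol, are WSB1, WSB2, CUL5, CUL2, ELOB, ELOC, RNF7, RBX1, UBE2F and SOCS3. They are 10 of the 58735 genes measured, and all 10 were among the 16528 genes with enough reads to be tested. The cells had been stably transduced with a lentivirus that carried either a control short hairpin RNA (control cells, which have the genotype WT in the labels) or one against WSB2 (KD cells). Each kind of cell was left unstimulated or received TNF-α, an inflammatory cytokine upstream of NF-κB, for 5 h. Each of the 4 groups had 2 libraries of total RNA, so 8 libraries were compared. Which WSB2 shRNA was used, the concentration of TNF-α and whether the 2 libraries of a group came from separate cultures are not given in the sources used here, so p-values measure the spread between libraries, which may be technical. A single WSB2 shRNA per group also means that an effect of the hairpin other than on WSB2 cannot be told apart from the loss of WSB2.

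A cullin-RING ligase is built on a cullin scaffold. At one end of the cullin, the adaptors elongin B and elongin C hold a substrate receptor through its SOCS box, and at the other end a small RING protein brings in the enzyme that carries ubiquitin. The ligase becomes active when the ubiquitin-like protein NEDD8 is attached to the cullin. WSB1 and WSB2 are paralogous SOCS-box receptors with a WD40 propeller that binds the substrate, and SOCS3 is a SOCS-box protein best known for restraining cytokine signaling through JAK kinases. The question behind the series is how RelA, the NF-κB subunit that the lysine methyltransferase Set9 (gene SETD7) methylates, is removed through WSB1 and WSB2. The comparisons below ask how strongly the hairpin lowered WSB2, and what the mRNA of its paralog and of the other ligase parts did with and without TNF-α.

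Paralogs can share reads, so the annotated transcripts of WSB1 and WSB2 were compared base by base. WSB2 lies on the minus strand at chr12:118032694-118062430 and WSB1 on the plus strand at chr17:27294076-27315926 (GRCh38, positions as deposited). Within their coding sequences, the longest identical runs were 11 bases, and there were 2 of them. One lies in exon 2 and the other in exon 4 of the coding transcript of each gene. They are shown as the longest perfect matches between the 2 receptors in coding sequence. Longer matches that hold mismatches, which a read could also meet, were not searched.

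WSB1 and WSB2, exon 2: tttgcttggtc

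WSB1 and WSB2, exon 4: tgggacctgaa

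The exon 2 run lies at chr17:27301892-27301902 in WSB1 and at chr12:118052361-118052371 in WSB2, and the exon 4 run at chr17:27304893-27304903 and chr12:118042849-118042859. Outside the coding sequence the longest shared run was 22 bases. The longest run shared by CUL2 and CUL5 was 17 bases, by RBX1 and RNF7 12 bases, and by ELOB and ELOC 10 bases. SRRM2, on the opposite strand, covers 16.8% of the exon bases of ELOB, RFC5 covers 4.03% of those of WSB2 from the opposite strand, and the readthrough gene UBE2F-SCLY covers 16.2% of those of UBE2F on the same strand. Whether counting used the strand is not given, so reads within the opposite-strand overlaps cannot be assigned with certainty. The pseudogene ELOCP2 held 119 reads over all libraries, beside 8551 on ELOC.

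The depth was 15601098 to 18677023 reads per library. The 10 genes held between 110 reads (the lowest library of UBE2F) and 5616 reads (the highest of ELOB). Markers of the line were as the label says in part: VIM, SPARC and COL1A1 lay between 146 and 293 FPKM (fragments per kilobase of exon, scaled to library size) in every library. RUNX2 lay between 1.29 and 2.94 and ALPL between 1.22 and 5.41. The other markers of the lineage were low: COL1A2, the partner chain of COL1A1, reached at most 0.0934 FPKM, BGLAP at most 0.448 with 2 libraries at 0, and the osteoblast genes SP7 and IBSP were listed at 0 in 7 and in 8 of the 8 libraries. The summed level of 4 blood markers was at most 0.302 FPKM and that of 3 endothelial markers at most 0.445. Of 4 epithelial markers, CLDN4 alone reached 2.34 to 5.02 FPKM and the others reached at most 0.482 FPKM. The 2 KD libraries without TNF-α stood apart from the other 6 libraries. The mean GC content of genes, weighted by reads, was 50.1% to 50.6% in them and 53.2% to 53.8% elsewhere, mitochondrial genes held 4.10% to 4.42% of reads against 1.11% to 2.03%, and the number of genes detected was 26225 and 26397, above the range of 22072 to 22957 elsewhere. The GC content of a gene's exons was taken, here and below, over all its annotated transcripts together, so shared exons count more than once. Across 16520 tested genes, the KD effect without TNF-α had a Spearman correlation of -0.70 with this GC content. For the KD effect with TNF-α it was 0.04 (genes are not independent replicates, so no p is given). The main results that rest on those 2 libraries are therefore given also after each library was corrected for a smooth trend on GC content and length (the correction), and the part that the make-up of these libraries has in it beyond that trend was not tested.

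In control cells without TNF-α, the 10 genes spanned 2 orders of level. ELOB, the adaptor elongin B, stood first at 269.8 ± 88.1 FPKM (SD, n = 2). WSB2 followed at 27.9 ± 0.198, then the RING proteins RBX1 at 24.3 ± 4.52 and RNF7 at 23.3 ± 5.09, whose libraries overlapped. ELOC, elongin C, at 14.6 ± 2.63 overlapped with SOCS3 at 13.4 ± 0.0683. The scaffolds were low: CUL2 had 3.69 ± 0.0428 and CUL5 1.98 ± 0.0909, with WSB1 at 3.31 ± 0.442 and UBE2F, the NEDD8-conjugating enzyme of cullin 5, at 2.46 ± 0.756 between them. UBE2F and CUL5 overlapped. FPKM is per length, so these levels can be set beside each other, but only roughly. The length is that of all annotated exons of a gene merged, which may differ from the length of the mRNA in these cells. The large overlap with SRRM2 also stands beside the level of ELOB. The spread of ELOB came from 332.1 FPKM in replicate 1 and 207.5 in replicate 2, and in the same direction replicate 1 was higher for ELOC, RNF7, RBX1 and UBE2F.

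**Figure D1:**
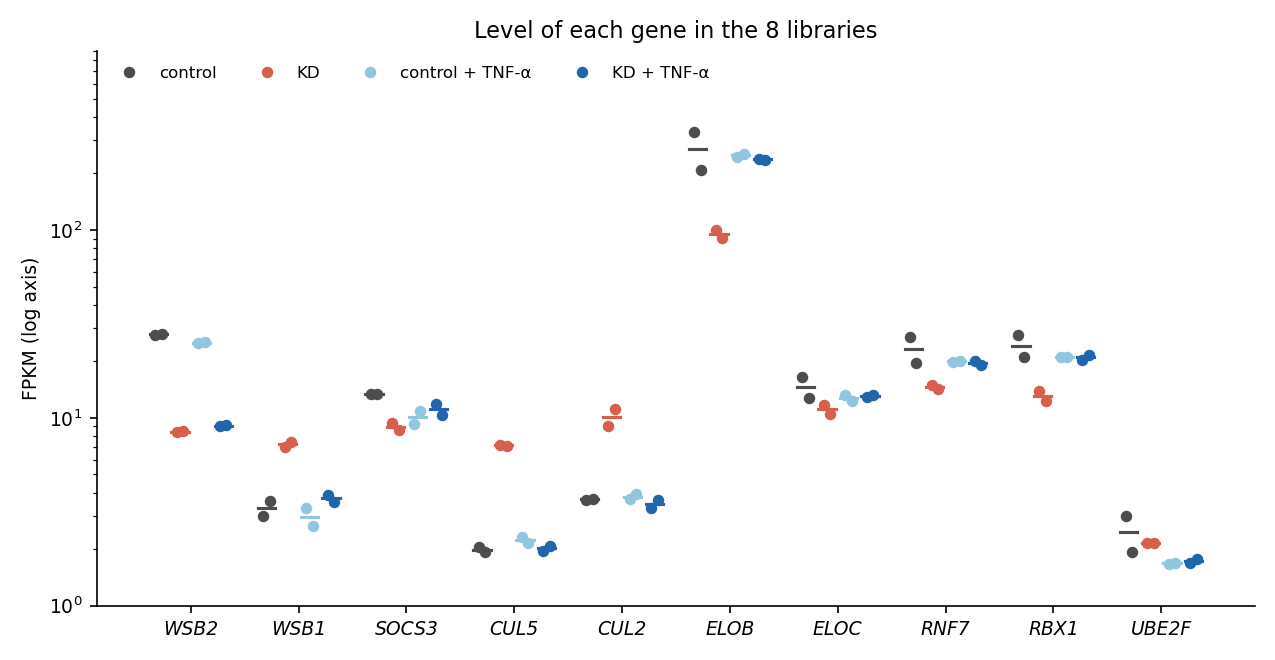
Level of the 10 genes in every library, as FPKM on a log axis, with points for the 2 libraries of each group and a short line at their mean. The 4 KD libraries lie under all 4 control libraries for WSB2, and for most other genes the 2 KD libraries without TNF-α stand apart from the remaining 6.

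WSB2 was lowered in both KD groups. Without TNF-α, it had 27.7 and 28.0 FPKM in the control libraries and 8.38 and 8.52 in the KD libraries. With TNF-α, the control libraries had 25.0 and 25.3 and the KD libraries 9.002 and 9.18. No KD library reached any control library, and the mean left in KD cells was 30.3% of control without TNF-α and 36.2% with it. On the log2(FPKM + 1) scale, WSB2 fell by 1.61 ± 0.0685 (SE) without TNF-α (limma, Benjamini-Hochberg adjusted p = 0.000119) and by 1.37 ± 0.0685 with TNF-α (adjusted p = 0.00113). Since the libraries were made from bulk cells, fewer cells with WSB2 mRNA and less of it per cell cannot be told apart. After the correction for GC content and length the differences were -1.42 and -1.39. Leaving out KD replicate 2 with TNF-α moved the adjusted p of the second to 0.0519 at a difference of -1.39, while over the 18 alternatives the adjusted p ran from 3.85e-05 to 0.0519 and 17 of the 18 kept the call. The fall was the same size without both KD libraries of the unstimulated state, with an adjusted p of 0.0108. The 2 falls differed by 0.24, with a 95% interval from 0.013 to 0.46 and an adjusted p of 0.0792 that misses the threshold. That difference was called without the filter on low reads (adjusted p = 0.0444), was 0.025 after the correction and -0.030 under scaling by total reads, and over the 16 alternatives its adjusted p ran from 0.0444 to 0.838. For TNF-α against none, WSB2 had no call in control cells, where the difference was -0.14 (95% interval from -0.30 to 0.016, adjusted p = 0.337), or in KD cells, where it was 0.095 (from -0.064 to 0.25, adjusted p = 0.259). In KD cells it turned to -0.15 after the correction (adjusted p = 0.0639) and to -0.25 under scaling by total reads, where it was called (adjusted p = 0.0198, and 0.0198 to 0.95 over the 17 alternatives), so no direction can be given.

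WSB1, the paralog, was higher in KD cells without TNF-α. Its control libraries had 3.001 and 3.63 FPKM and its KD libraries 7.03 and 7.46, so the KD libraries were both above the control libraries. The rise was 0.94 ± 0.123 (log2, adjusted p = 0.000507), and 0.47 ± 0.0940 after the correction for GC content and length (adjusted p = 0.00476), with the call kept in all 17 alternatives. With TNF-α the control libraries had 3.30 and 2.65 FPKM and the KD libraries 3.87 and 3.58. The KD libraries were again both above the control libraries, yet the difference was 0.25, with a 95% interval from -0.034 to 0.54 and an adjusted p of 0.673. After the correction it was 0.25 as well, with an interval from 0.029 to 0.466 and an adjusted p of 0.415. With TNF-α the libraries of WSB2, CUL5, CUL2 and ELOB separated too, the KD libraries being the lower. The share of all tested genes whose libraries separate so was not computed, so separation is given only as a description. In KD cells WSB1 was lower with TNF-α than without it by 0.80 ± 0.123 (adjusted p = 0.000838) and by 0.39 after the correction (adjusted p = 0.00906). In control cells the difference was -0.12 (adjusted p = 0.694). The level in unstimulated KD cells was reached by no other group. Those libraries stand apart, so an effect of TNF-α in KD cells cannot be told apart from their make-up.

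The ratio of WSB2 to WSB1 within a library describes how the 2 receptors stood to each other, and since WSB2 was the targeted gene it is given as a description. In control cells it was 8.48 ± 1.07 (SD, n = 2) without TNF-α and 8.55 ± 1.38 with it. In KD cells it was 1.17 ± 0.0357 without TNF-α and 2.45 ± 0.167 with it. The single libraries ran from 7.57 to 9.52 in control cells and from 1.14 to 2.56 in KD cells. By FPKM, WSB2 thus remained the higher of the 2 in every library. The sum of both was 31.2 ± 0.641 FPKM in control and 15.7 ± 0.399 in KD cells without TNF-α, and 28.1 ± 0.263 and 12.8 ± 0.0753 with it. Before the values are divided by length, WSB1, whose exons cover 8602 bases against 4616 for WSB2, had more reads than WSB2 in the unstimulated KD libraries, with a read ratio of 0.626 ± 0.0192.

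**Figure D2:**
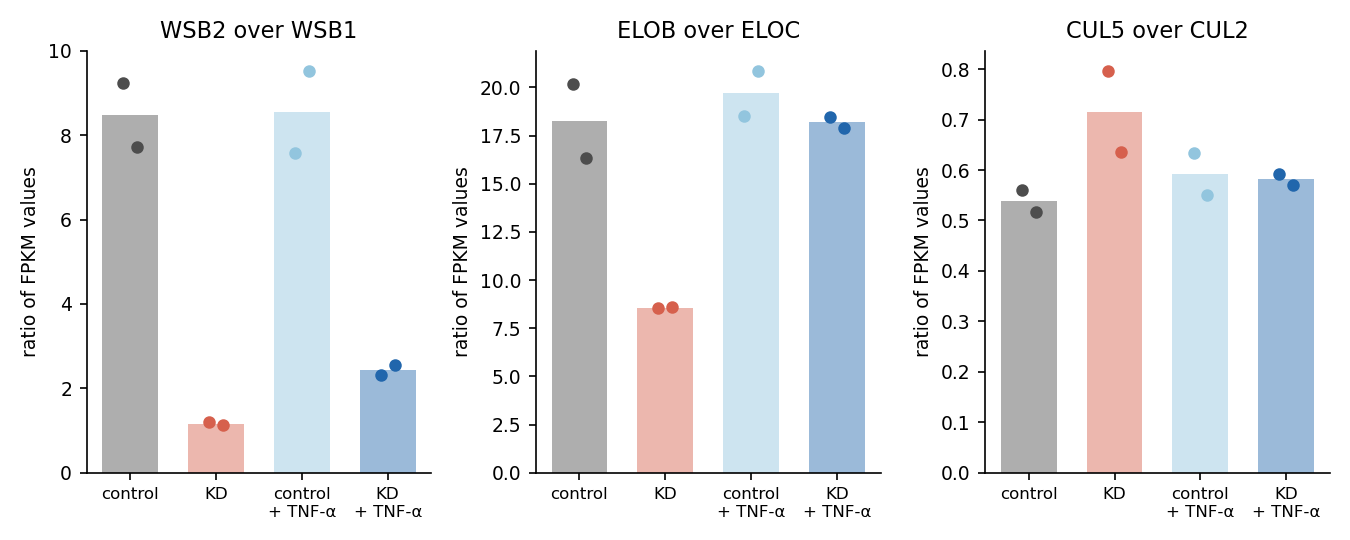
Ratio of FPKM values within each library for WSB2 over WSB1, ELOB over ELOC and CUL5 over CUL2, with bars at the mean of each group and points for its 2 libraries. The first ratio is 8.48 and 8.55 in the control groups, falling to 1.17 and 2.45 in the KD groups, and the second is 8.57 in unstimulated KD cells against 18.2 to 19.7 in the other groups (16.2 against 14.8 to 15.9 after the correction).

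Taking the 10 genes together, 3 were called higher and 6 lower in KD cells without TNF-α, against 29.8% of all tested genes called higher and 30.2% called lower in the same comparison. With so large a background, the counts say little about these genes as a group. After the correction for GC content and length 3 were higher and 5 lower, with a background of 23.3% and 27.9%. With TNF-α, WSB2 was the only one of the 10 called, and it was lower, where 0.0605% of tested genes were called higher and 0.0545% lower. The median log2 fold change of the 10 genes was -0.44 without TNF-α (-0.39 after the correction) and -0.017 with it, beside -0.0010 and -0.00015 over all tested genes. These counts for the unstimulated state follow the scaling: under scaling by total reads, the median over all tested genes was 0.13, and 6517 genes were called higher and 3456 lower in place of 4932 and 4996. The median of the 10 genes was then -0.18, and 3 of them were higher and 4 lower.

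**Figure D3:**
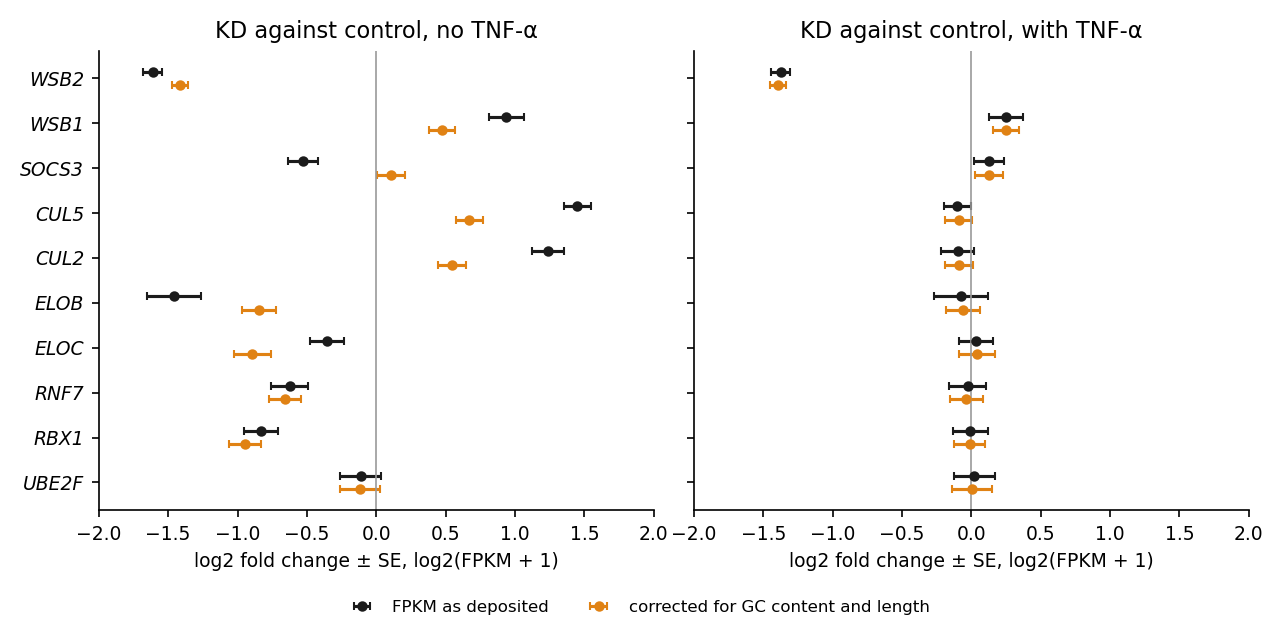
KD effect (log2 fold change against control cells, log2(FPKM + 1) scale), with bars for the SE, without TNF-α (left) and with TNF-α (right), from the deposited FPKM values (black) and after the correction for GC content and length (orange). WSB2 lies between -1.61 and -1.37 in all 4 fits, while the gene next farthest from 0 with TNF-α is WSB1 at 0.25.

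The scaffolds CUL5 and CUL2 were higher in KD cells without TNF-α. CUL5, the cullin that takes SOCS-box receptors, rose from 2.05 and 1.92 FPKM in the control libraries to 7.18 and 7.11 in the KD libraries. CUL2, the scaffold of the VHL ligase, had 3.65 and 3.72 against 9.02 and 11.2. Both cullins were thus above the control range in both KD libraries. The rise of CUL5 was 1.45 ± 0.0974 (adjusted p = 0.000119) and that of CUL2 1.24 ± 0.117 (adjusted p = 0.000188), and after the correction they were 0.67 and 0.54 with adjusted p of 0.00148 and 0.00354. Both kept their call in all 17 alternatives. The exons of both genes have a GC content of 38.2%, below the 10th percentile of tested genes (40.0%), and genes of low GC content were on the whole higher in the unstimulated KD libraries.

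With TNF-α neither cullin had a called difference between KD and control cells. CUL5 had 2.33 and 2.15 FPKM (control) against 1.97 and 2.08 (KD), a difference of -0.10 (95% interval from -0.33 to 0.13, adjusted p = 0.912). CUL2 had 3.68 and 3.92 against 3.32 and 3.65, a difference of -0.098 (from -0.37 to 0.17, adjusted p = 0.941). These intervals do not hold the rises seen without TNF-α. In KD cells CUL5 was lower with TNF-α than without it by 1.43 and CUL2 by 1.30 (adjusted p = 4.75e-05 and 9.57e-05). After the correction they were lower by 0.67 and 0.60. In control cells the differences were 0.12 and 0.034, with adjusted p of 0.595 and 0.924. The comparison in KD cells starts from the unstimulated libraries that stand apart, so an effect of TNF-α cannot be told apart from their make-up. The ratio of CUL5 to CUL2 ran from 0.517 to 0.797 over the 8 libraries, so CUL2 was the higher by FPKM in each. After the correction the ratio ran from 0.532 to 0.760.

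The adaptors moved the other way. Without TNF-α ELOB had 332.1 and 207.5 FPKM in the control libraries against 99.8 and 90.6 in the KD libraries, and the KD libraries lay under both control libraries in spite of the spread in the latter. The difference was -1.46 ± 0.195 (adjusted p = 0.00054), and -0.85 ± 0.123 after the correction. The exons of ELOB have a GC content of 60.5%, near the 90th percentile of tested genes (61.7%). ELOC, with 40.8%, had 16.4 and 12.7 FPKM (control) against 11.7 and 10.5 (KD). Its difference of -0.35 ± 0.121 just passed the threshold (adjusted p = 0.036) and was called in 7 of 17 alternatives. It was the fall that grew most with the correction, to a difference of -0.89 ± 0.132 (adjusted p = 0.00155). Over the 17 alternatives the adjusted p of ELOC ran from 0.00155 to 0.488, and the largest belongs to libraries scaled to total reads, with a difference of -0.092. Without control replicate 1, the difference was -0.18 (adjusted p = 0.132), without KD replicate 1 -0.42 (0.0591) and without KD replicate 2 -0.29 (0.177). With TNF-α ELOB had 245.5 and 255.0 FPKM (control) against 237.9 and 237.0 (KD), and ELOC had 13.3 and 12.2 against 12.9 and 13.3. The differences, -0.075 and 0.034, had 95% intervals from -0.53 to 0.38 and from -0.25 to 0.32. ELOB exceeded ELOC 16.3 to 20.9 times in 6 libraries and 8.54 and 8.59 times in the unstimulated KD libraries. After the correction the ratio was 16.2 ± 1.85 in unstimulated KD cells and 14.8 ± 0.114 in unstimulated control cells.

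The RING proteins, RNF7 (also known as RBX2 and paired with cullin 5) and RBX1 (paired with cullin 2 and most others), were lower in unstimulated KD cells. RNF7 had 26.9 and 19.7 FPKM in control and 14.99 and 14.2 in KD cells. RBX1 had 27.5 and 21.1 in control and 14.0 and 12.3 in KD cells. Again both KD libraries lay under both control libraries. RNF7 fell by 0.62 ± 0.132 (adjusted p = 0.00439) and RBX1 by 0.83 ± 0.125 (adjusted p = 0.000869), and after the correction the differences were -0.66 and -0.94. The call of RNF7 was kept without control replicate 1, at -0.41. Their exons, at 46.1% and 45.03%, lie below the median GC content of tested genes (49.4%). The plot of fold change against GC content shows both below the bulk of genes of like GC content. With TNF-α the differences were -0.027 for RNF7 and -0.0072 for RBX1, with 95% intervals from -0.33 to 0.28 and from -0.30 to 0.28. In KD cells RBX1 was higher with TNF-α than without it by 0.64 ± 0.125 (adjusted p = 0.00272) and by 0.79 after the correction. The call was kept in all 17 alternatives, though it too rests on the unstimulated KD libraries that stand apart. RNF7 rose by 0.40 ± 0.132 (adjusted p = 0.0295; 0.46 after the correction), which was kept in 10 of 17 and lost when any of the 4 KD libraries was left out (adjusted p from 0.0718 to 0.127), and under scaling by total reads its difference was 0.042 (adjusted p = 0.762).

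**Figure D4:**
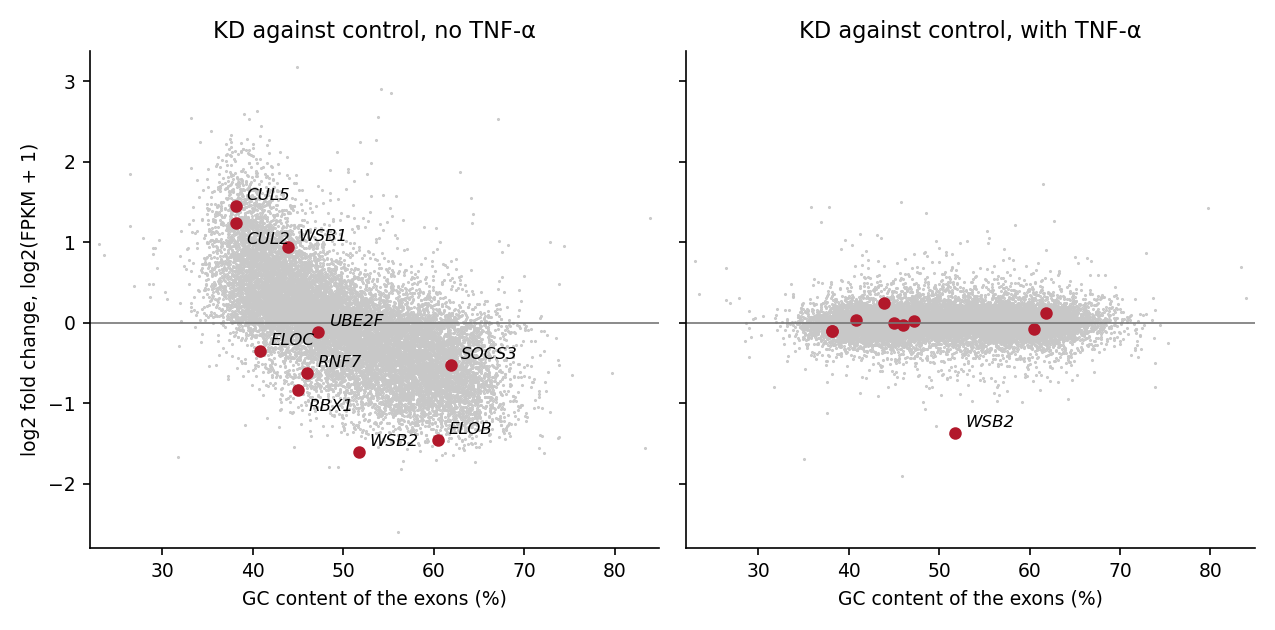
KD effect (y axis, log2 fold change on the log2(FPKM + 1) scale) against the GC content of the gene's exons in percent (x axis, over all annotated transcripts together). Panels are without TNF-α (left) and with TNF-α (right), for all tested genes with a GC value (grey) and the 10 genes (red). The grey cloud slopes down without TNF-α (Spearman -0.70) and is flat with it (0.04), and WSB2 lies below it in both.

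UBE2F, which passes NEDD8 to cullin 5 with RNF7, showed no called difference in any comparison. It had 2.99 and 1.92 FPKM (control) and 2.17 and 2.15 (KD) without TNF-α, and 1.68 and 1.68 against 1.68 and 1.76 with it. The control libraries without TNF-α enclosed the KD values. The differences were -0.11 (95% interval from -0.46 to 0.23) and 0.022 (from -0.32 to 0.37). UBE2F was the shallowest of the 10, with 1153 reads in all, and its pseudogenes UBE2FP1 and UBE2FP3 held 59 and 35 reads. The first of these differences was -0.12 after the correction, turned to 0.11 without control replicate 1, was 0.088 with libraries scaled to total reads, and was called at -0.34 without control replicate 2 (adjusted p = 0.0256, and 0.0256 to 0.684 over the 17 alternatives). For TNF-α against none in KD cells the difference was -0.22 (adjusted p = 0.236), called in 1 of 17 alternatives, the scaling by total reads, at -0.47 (adjusted p = 0.0169).

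SOCS3 (chr17:78356778-78360077, minus strand) was lower in unstimulated KD cells, at 9.37 and 8.56 FPKM against 13.3 and 13.4 in control cells. The groups did not overlap, and the fall was 0.53 ± 0.107 (adjusted p = 0.00351), kept in 15 of 17 alternatives. After the correction for GC content and length the difference was 0.11 (adjusted p = 0.393), with an adjusted p from 0.00198 to 0.393 over the 17 alternatives, and the exons of SOCS3 have a GC content of 61.9%. With TNF-α SOCS3 had 9.29 and 10.9 FPKM (control) and 11.9 and 10.3 (KD), which overlapped, and the difference was 0.13 (95% interval from -0.12 to 0.37, adjusted p = 0.882). In control cells the libraries with TNF-α lay under both libraries without it, with a difference of -0.38 that did not pass the threshold (adjusted p = 0.111, from 0.0602 to 0.439 over 18 alternatives). In KD cells the difference was 0.28 (adjusted p = 0.0514), it was -0.39 after the correction (adjusted p = 0.0125) and -0.068 under scaling by total reads, so no direction can be given (adjusted p from 0.0125 to 0.597 over 17 alternatives).

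None of the 10 genes was called for TNF-α in control cells by limma, where 3.1% of tested genes were called higher and 1.14% lower. At an unadjusted p under 0.05, 2 of the 10 were lower, SOCS3 and UBE2F, and 2899 of the 16528 tested genes differed in either direction. Limma with voom weights on the recovered reads called none of the 10. It had 2 of them at that unadjusted level, beside 2917 of all tested genes. That none of the 10 was called depends on 1 library. Without control replicate 2 of the unstimulated state, the differences were -0.41 for ELOB, -0.41 for RNF7, -0.37 for RBX1 and -0.57 for UBE2F. Without replicate 1 those of ELOB, RNF7 and RBX1 were 0.27, 0.019 and 0.0014. The difference of UBE2F ran from -0.57 to -0.13 leaving out each library. In KD cells, 3 of the 10 were higher with TNF-α (ELOB, RNF7 and RBX1) and 3 lower (WSB1, CUL5 and CUL2), with a background of 31.1% and 31.4%. That comparison rests on the unstimulated KD libraries that stand apart, so an effect of TNF-α cannot be told apart from their make-up. ELOB rose by 1.31 ± 0.195 (adjusted p = 0.000718), and by 0.70 after the correction. After the correction 4 were higher and 4 lower, with ELOC and SOCS3 added, and the background was 28.9% and 27.3%. With libraries scaled to total reads, 3309 genes were called higher and 7239 lower, in place of 5141 and 5187, around a median of -0.19 over all genes. The comparisons of KD with control and of TNF-α with none share libraries, so they are not independent of one another.

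The interaction of KD and TNF-α (the KD effect with TNF-α minus that without it) was called for 7 of the 10 genes, 4 higher and 3 lower. All 7 rest on the unstimulated KD libraries that stand apart, so an effect of the hairpin cannot be told apart from their make-up. Of all tested genes, 23.8% had a called interaction above 0 and 22.3% below 0. CUL5 had the largest interaction of the 10, at -1.55 ± 0.138 (adjusted p = 0.00103), followed by ELOB at 1.38 ± 0.275 and CUL2 at -1.34 ± 0.165. After the correction 4 were higher and 2 lower, with a background of 19.1% and 14.9%. SOCS3 then had 0.022 (adjusted p = 0.919) and WSB1 -0.22 (0.221), neither of them called, while CUL5, CUL2, ELOB, RNF7 and RBX1 kept their calls and ELOC gained one. RNF7, at 0.60, had a call in 8 of 16 alternatives, with adjusted p from 0.000633 to 0.142, and lost it when any KD library or any control library with TNF-α was left out (0.0628 to 0.099). WSB1, at -0.69, had a call in 12 of 16 (adjusted p from 0.00567 to 0.221), and lost it without KD replicate 2 of either state (0.0594 and 0.0572) or control replicate 1 with TNF-α (0.0577). Scaled to total reads, 2440 genes had a called interaction above 0 and 4967 below 0, in place of 3935 and 3679.

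The genes that work around these ligases were described by lists chosen by function, and limma on the FPKM values called none of their genes in KD cells with TNF-α. Of all tested genes, 0.0605% were called higher and 0.0545% lower there, so a count of none says little about these lists. Over the 7 lists, 101 genes were tested. At an unadjusted p under 0.05 there were 6 of the 101, beside 1348 of all 16528 tested genes. By limma with voom weights, after the correction and under scaling by total reads, 1 gene was called. It was IL11, a cytokine of the interleukin 6 family that was singled out after its values were seen (0.62, adjusted p = 0.0816). It was also called when 1 or the other unstimulated control library was left out, as was SPSB1 (0.42) then, and on the compared libraries alone, and the adjusted p of IL11 in these fits ran from 0.00943 to 0.0496. Without TNF-α, 36.6% of the 101 were called higher and 32.7% lower, near the 29.8% and 30.2% of all tested genes, and 21.8% and 31.7% after the correction against 23.3% and 27.9%. The counts of each list below are to be read against those shares, and each list held genes called in both directions.

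Of 36 other SOCS-box receptors, 24 were tested, and 7 were higher and 7 lower in unstimulated KD cells, as near to the shares of all genes as 24 genes allow. The median log2 fold change was -0.064, but 0.078 after the correction, where 5 were higher and 5 lower, and 0.061 under scaling by total reads. SOCS4 (1.57) and SOCS5 (1.25), a pair of receptors related to SOCS3, rose most, and RAB40C (-0.81), a small GTPase with a SOCS box, and SPSB4 (-0.75) fell most. After the correction these values were 0.67, 0.61, -0.21 and -0.25, the last not called. SOCS1, which restrains cytokine receptors as SOCS3 does, had 7.88 ± 1.73 FPKM in control and 4.41 ± 0.163 in KD cells without TNF-α, a fall of 0.70 (adjusted p = 0.0105) that was -0.029 after the correction (adjusted p = 0.892). In control cells TNF-α lowered SOCS1 by 1.04 ± 0.179 (adjusted p = 0.0198), to 3.28 ± 0.505 FPKM. In the same comparison ASB1 (0.34) and SPSB1 (0.55) were called higher. Of the 24 receptors, 1 was called higher there after the correction and 1 under scaling by total reads. Of the 12 tested of 13 receptors that use cullin 2, 5 were higher and 3 lower, among them FEM1C (1.14), FEM1B (1.08), KLHDC3 (-1.07) and ZER1 (-0.81). After the correction 2 were higher and 2 lower, with FEM1C at 0.42, FEM1B at 0.43, KLHDC3 at -0.58 and ZER1 at -0.29, not called. VHL, the tumor suppressor that is the best known receptor of cullin 2, had 14.5 ± 2.11 FPKM in control and 12.9 ± 0.617 in KD cells, and the difference of -0.16 was not called (adjusted p = 0.248).

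Of 21 tested genes for the attachment and removal of NEDD8, 7 were higher and 8 lower in unstimulated KD cells, and 3 were higher and 11 lower after the correction. COPS2 (1.47), a subunit of the COP9 signalosome that removes NEDD8, and CAND1 (1.30), which exchanges receptors on cullins, rose most. COPS9 (-1.25) and UBE2M (-1.20), the NEDD8-conjugating enzyme of the cullins paired with RBX1, fell most. After the correction the 4 values were 0.56, 0.44, -0.72 and -0.57, all called. UBE2M had 53.1 ± 11.2 FPKM in control and 22.3 ± 1.75 in KD cells, against 58.9 ± 6.06 and 57.8 ± 1.14 with TNF-α. NEDD8 itself had 11.7 ± 3.01 and 6.06 ± 1.32 without TNF-α (a fall of 0.84, adjusted p = 0.00534, and -0.83 after the correction) and 10.2 ± 1.11 and 9.92 ± 0.467 with it. Of 12 genes for ubiquitin transfer at cullins, 3 were higher and 5 lower, led by the ubiquitin-activating enzyme UBA6 (1.45) and UBE2D1 (0.49) on one side and the conjugating enzyme CDC34 (-1.26) and UBA1 (-0.61) on the other. After the correction 1 was higher and 7 lower, with UBA6 at 0.49, CDC34 at -0.58 and UBA1 at -0.33, while UBE2D1 turned to -0.27 (adjusted p = 0.0219). ARIH2, the RING-between-RING ligase that works with cullin 5, had 13.3 ± 0.901 FPKM in control and 12.1 ± 0.367 in KD cells, with a difference of -0.12 that was not called (adjusted p = 0.241). Of 8 other cullins and adaptors, 3 were higher, led by CUL4B (1.14) and CUL3 (0.83), and DDB1 (-0.65) and CUL7 (-0.56) were lower. After the correction 1 was higher (CUL4B, 0.42) and 2 lower, with DDB1 at -0.80, while CUL3 (-0.10) and CUL7 (-0.14) were not called.

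**Figure D5:**
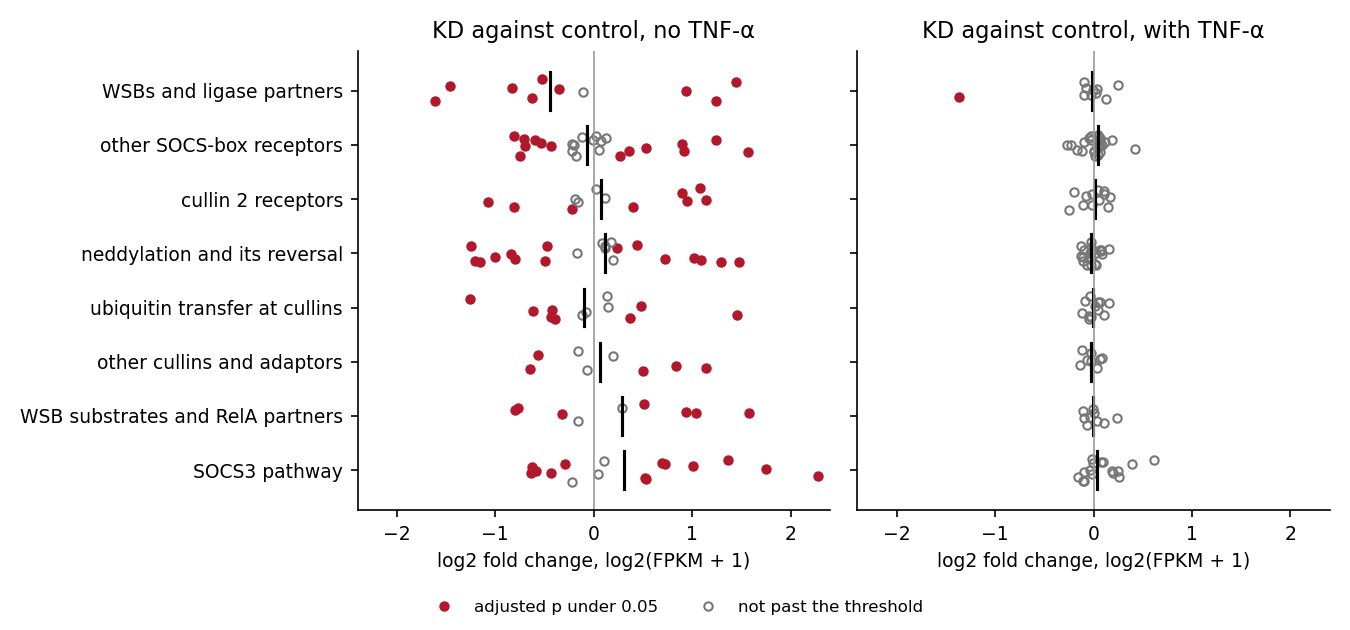
KD effect as log2 fold change on the log2(FPKM + 1) scale for the 10 genes and the 7 lists of related genes, without TNF-α (left) and with TNF-α (right), with a point for each tested gene (filled when the adjusted p is under 0.05) and a black line at the median of the list. Called genes lie on both sides of 0 in every list without TNF-α, and WSB2 is the only filled point with TNF-α.

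Among 9 substrates of the WSB proteins and partners of RelA, 4 were higher and 3 lower in unstimulated KD cells, before and after the correction. RELA, the NF-κB subunit, had 28.1 ± 1.07 FPKM in control and 16.1 ± 0.341 in KD cells, a fall of 0.77 ± 0.0719 (adjusted p = 0.000183), and a difference of -0.30 after the correction (adjusted p = 0.0122). SETD7, the gene of Set9, had 4.62 ± 1.55 and 10.3 ± 0.317, a rise of 1.03 ± 0.168 (adjusted p = 0.00125), and 0.64 after the correction (adjusted p = 0.00326). ATM, a DNA damage kinase, rose most (1.58) and COMMD1, which takes part in the removal of RelA, fell most (-0.80), with 0.71 and -0.56 after the correction. With TNF-α RELA mRNA was 40.4 ± 0.813 in control and 40.3 ± 1.52 in KD cells (difference -0.0030, 95% interval from -0.17 to 0.16), and SETD7 was 5.44 ± 0.246 and 5.30 ± 0.0659 (difference -0.033, from -0.42 to 0.36). In control cells TNF-α raised RELA by 0.51 ± 0.0719 (adjusted p = 0.00828), the only called gene of the 9 there. Of 16 genes of the cytokine pathway that SOCS3 restrains, 8 were higher and 5 lower in unstimulated KD cells, from the receptor subunits IL6ST (2.28) and LIFR (1.75) to the receptor IL11RA (-0.64) and IL11 (-0.62), and 6 were higher and 2 lower after the correction, when IL6ST (1.39) and LIFR (0.90) kept their calls and IL11RA (-0.11) and IL11 (-0.014) did not. In control cells 4 of the 16 rose with TNF-α, where 3.1% of all tested genes were called higher. The count was 4 after the correction and 3 under scaling by total reads. Those called were led by the cytokine LIF (1.38, adjusted p = 0.000177) and IL6ST (0.95). LIF had 26.0 ± 1.70 FPKM without and 69.0 ± 4.10 with TNF-α in control cells, and 90.6 ± 0.231 in KD cells with TNF-α, a difference from control of 0.39 that was not called (adjusted p = 0.233). IL6 reached at most 0.531 FPKM in any library, and STAT3, the factor downstream of these receptors, had 12.8 ± 1.79 without and 14.4 ± 0.483 with TNF-α in control cells (0.17, adjusted p = 0.477).

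The genes whose levels over the 8 libraries were most like those of WSB2, by Pearson correlation of log2(FPKM + 1), were COL3A1 (0.989), FKBP9 (0.988), ATP6V1B2 (0.982), ALPP (0.977) and LAMB2 (0.970), and 24 of 16527 genes exceeded 0.95. COL3A1, a fibrillar collagen, had 7.27 and 7.07 FPKM in unstimulated control libraries against 2.35 and 2.03 in KD libraries, and 5.66 and 6.60 against 1.85 and 1.98 with TNF-α. For WSB1 they were UBE2D1 (0.998), COG5 (0.997), ARR3 (0.994), ANKRD10 (0.993) and EIF2AK4 (0.993), and 1095 genes exceeded 0.95. For SOCS3 they were AC083880.1 (0.960), SLC27A1 (0.958), CDPF1 (0.956), AC008438.1 (0.951) and ADORA1 (0.949), and 4 genes exceeded 0.95. These values describe 8 libraries that share their groups. The pattern of WSB1 is that of the 2 unstimulated KD libraries against the rest, which many genes shared, while the pattern of WSB2 separates the 4 KD libraries from the 4 control libraries.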

How the data were processed

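U2OS cells with a control or a WSB2 shRNA, without or with TNF-α for 5 h, were sequenced as 4 groups of 2 libraries, and groups and replicate numbers were taken from the labels. The authors deposited FPKM values for 58735 genes, with positions and exon lengths that match release 29 of GENCODE (GRCh38). The submitters' processing notes name CASAVA 1.8, fastp, HISAT2 2.0.5, featureCounts 1.5.0-p3 and DESeq2 1.20.0. The read counts were recovered from the values (100% whole at a tolerance of 0.01), and the libraries had been scaled together by median-of-ratios factors before they were deposited. The study's methods name edgeR, but FPKM values are not counts, so limma 3.58.1 in R 4.3.3 was used on log2(FPKM + 1), a scale on which the changes of genes near 1 FPKM come out too small. The model held a mean per group over 8 libraries (4 residual degrees of freedom) with a variance trend, with Benjamini-Hochberg adjustment of p-values over the 16528 genes that had 10 or more reads (scaled to median depth) in 2 or more libraries and 15 or more reads in total. Calls were made at an adjusted p under 0.05, and intervals are at 95%. Scripts were tested on simulated data. Alternatives were a pseudocount of 0.1, other filters (none, or a mean of at least 1 CPM) and scalings, a fit on only the compared libraries, leaving each library out, the replicate number as a block, voom, and a correction by splines (5 degrees of freedom) on GC content and length, which 8 tested genes could not enter. A fit without both unstimulated KD libraries was added after the data were seen. The 10 genes and all lists were chosen with earlier results of these data known. Genes named were the 10 members, up to 2 with the largest rise and 2 with the largest fall among the called genes of a list, 10 related genes set beside a member, and the 5 genes most like WSB2, WSB1 and SOCS3. Transcripts were compared with GENCODE release 29. Tables and plots were made in Python 3.11.15 (numpy 2.4.6; pandas 2.3.3; matplotlib 3.10.9).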

Additional observations from a re-analysis of the deposited data

Results flagged for a closer look

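By the interaction test of limma, the difference between KD and control cells was unequal without and with TNF-α for 7 of the 10 genes (adjusted p under 0.05). The interaction (the KD effect with TNF-α minus the KD effect without it, on the log2(FPKM + 1) scale) was -0.69 for WSB1, -1.55 for CUL5, -1.34 for CUL2, 1.38 for ELOB, 0.60 for RNF7, 0.82 for RBX1 and 0.65 for SOCS3. After the correction for GC content and length it was -0.22 for WSB1, -0.76 for CUL5, -0.63 for CUL2, 0.79 for ELOB, 0.62 for RNF7, 0.93 for RBX1 and 0.022 for SOCS3, and the calls of WSB1 and SOCS3 were lost. All 7 rest on the 2 unstimulated KD libraries that stand apart, so an effect of the hairpin cannot be told apart from their make-up. Of all tested genes, 23.8% had a called interaction above 0 and 22.3% below 0.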

How the results depend on the processing

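Each of the 5 comparisons of the 10 genes was repeated under 16 to 18 alternatives, giving 860 values, of which 789 kept their direction and their side of the threshold, 33 fell short of it, 17 passed it newly and 21 turned sign. Under scaling by total reads, the differences that turned were UBE2F in KD against control without TNF-α (0.088), CUL2 for TNF-α in control cells (-0.028, and -0.022 under upper-quartile scaling), WSB2 (-0.25, called), ELOC (-0.13) and SOCS3 (-0.068) for TNF-α in KD cells, and the interactions of WSB2 (-0.030) and UBE2F (-0.079). Under the correction for GC content and length they were SOCS3 in KD against control without TNF-α (0.11) and WSB2 (-0.15) and SOCS3 (-0.39) for TNF-α in KD cells. Leaving out each library, the values that crossed 0 ranged from -0.34 to 0.11 for UBE2F without TNF-α, and with TNF-α from -0.020 to 0.089 for ELOC, -0.066 to 0.012 for RNF7 and -0.050 to 0.035 for RBX1. For TNF-α in control cells the ranges were -0.0030 to 0.070 for CUL2, -0.41 to 0.27 for ELOB, -0.34 to 0.0016 for ELOC, -0.41 to 0.019 for RNF7 and -0.37 to 0.0014 for RBX1, and for the interaction of UBE2F -0.091 to 0.36. The cause of these turns was not tested. Leaving out each library, the difference of WSB2 with TNF-α ranged from -1.39 to -1.36 (-1.47 to -1.36 over all 18 alternatives), and the genes called in that comparison from 0 (without KD replicate 2, where WSB2 had an adjusted p of 0.0519) to 1. For TNF-α in control cells 0 to 4 of the 10 were called, the 4 without control replicate 2. The ratio of WSB2 to WSB1 was 7.27 in unstimulated control, 1.72 in unstimulated KD and 2.14 in stimulated KD cells after the correction, and from reads not divided by length 4.55, 0.626, 4.59 and 1.31 in unstimulated control, unstimulated KD, stimulated control and stimulated KD cells.

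Over all genes, KD against control with TNF-α had 19 calls, and 7 without the filter, 39 on the compared libraries, 52 by voom, 64 after the correction, 7 without both unstimulated KD libraries and 0 to 98 leaving out each library. TNF-α in control cells had 701 calls, and 368 without the filter, 238 on the compared libraries, 443 without both unstimulated KD libraries and 229 to 2130 leaving out each library. The groups share replicate numbers but only 2 of them. The differences between replicates 1 and 2 had correlations between groups from -0.19 to 0.35, the highest between the 2 unstimulated groups. As each group gives only 1 such difference, whether same-numbered libraries were prepared together cannot be told. With the replicate number as a block, 9, 1, 0, 6 and 7 of the 10 genes were called in the 5 comparisons, as without it, and KD against control with TNF-α had 10 calls over all genes. Groups of 2 limit every SD and p-value here, and UBE2F, with 110 to 190 reads per library, is the least precise of the 10.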
